A study of Homo sapiens with 31 samples.

Results

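The Kruppel-like factor genes described here were KLF2, KLF3, KLF4, KLF6, KLF7, KLF9, KLF10, KLF11, KLF13 and KLF16. They were chosen by name, and all 10 were found among the 25073 gene symbols of the table that compares RHOA genotypes. In the tables of drug-treated cells, which hold 63140 gene rows under Ensembl identifiers, only KLF3 and KLF16 were read.

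The study used RNA sequencing of 31 samples in 11 groups to ask how the small GTPase RHOA takes part in B-cell receptor signalling in activated B-cell-like (ABC) diffuse large B-cell lymphoma. The genotype set held 2 libraries of TMD8 cells carrying a RHOA p.R5W knock-in (R5W) and 2 libraries of TMD8 cells whose RHOA was wild type (WT). Both genotypes were exposed overnight to copanlisib, which inhibits PI3K, at 50 nM, so every R5W and WT value is one under PI3K inhibition. The drug set held TMD8, RIVA and HBL1, established ABC lymphoma cell lines with wild-type RHOA. Each line was treated for 10 h with 60 µM Rhosin, an inhibitor of RHOA, with 10 nM ibrutinib, an inhibitor of the receptor kinase BTK, or with DMSO, the solvent control, in 3 libraries per treatment. The labels do not say whether the R5W cells were 1 clone or several, nor whether replicates came from separate cultures, so p-values measure the spread between these libraries, which may be technical.

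Kruppel-like factors are transcription factors whose C-terminal zinc fingers bind CACCC and GC-rich boxes in promoters. The family divides by its partners: KLF2, KLF4, KLF6 and KLF7 mostly activate, KLF3 represses through the co-repressor CtBP, and KLF9, KLF10, KLF11, KLF13 and KLF16 can recruit the co-repressor SIN3A. In lymphocytes KLF2 holds resting cells in quiescence and sets their homing through genes such as S1PR1, and its promoter is a target of MEF2 factors, which the kinase ERK5 activates. PI3K signalling is known to lower KLF2 by keeping FOXO factors out of the nucleus.

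The promoter windows of 2 members are shown because KLF2 had the largest change between R5W and WT, and because KLF16, which was read in both sets, held the most GC boxes among the members' windows. Each window is the 250 bases before the annotated start, from RefSeq on GRCh38.p14, 5′ to 3′ on the gene's strand. In KLF2 (chr19:16324576-16324825, plus strand) capitals mark the match to the MEF2 motif, whose last base lies 111 bases before the start. In KLF16 (chr19:1863580-1863829, minus strand) capitals mark GGGCGG, the GC box core, on either strand, with 7 matches.
KLF2: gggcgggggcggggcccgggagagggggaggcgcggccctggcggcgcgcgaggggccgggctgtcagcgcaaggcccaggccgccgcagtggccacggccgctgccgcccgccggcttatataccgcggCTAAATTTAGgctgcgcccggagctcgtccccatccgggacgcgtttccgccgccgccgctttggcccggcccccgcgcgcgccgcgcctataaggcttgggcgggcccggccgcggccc
KLF16: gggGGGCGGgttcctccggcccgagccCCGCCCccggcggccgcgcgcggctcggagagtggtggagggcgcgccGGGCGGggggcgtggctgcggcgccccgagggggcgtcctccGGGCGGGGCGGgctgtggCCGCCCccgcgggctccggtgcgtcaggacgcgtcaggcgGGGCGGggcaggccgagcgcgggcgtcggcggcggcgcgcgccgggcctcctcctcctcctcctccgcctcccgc

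Promoter windows were found for 8 of the 10 members, 12 windows in all because some genes have several starts, and not for KLF3 and KLF10. Among these 12 windows the MEF2 motif was found in 1, that of KLF2, against 2.82% of the 34786 RefSeq promoter windows of the same length. GGGCGG was found in 8 of the 12, against 42.6% of all windows, and CACCC, the other box the family binds, in 4, against 54.7%. GTAAACA, the core that FOXO factors bind, was in none of the 12, against 2.98%. The kB motif was also in none, against 5.21%, and the CArG motif was in 1 window of KLF7, against 1.17%. All motifs were searched on both strands, and 1 match of CACCC in the KLF13 window overlapped a GGGCGG match. A match describes letters only and is not a binding site.

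The R5W and WT libraries held 19460572 to 21956526 reads assigned to genes, and the drug libraries 8911238 to 14153796 counts. RHOA itself had log2 values of 13.65 and 13.73 in R5W and 13.83 and 13.70 in WT, a difference of -0.07 (SE 0.075, adjusted p = 0.531). This level carries no sequence of the altered codon, so it does not check the genotype. B-cell markers were high in all 4 libraries, and 4 of 6 (MS4A1, CD74, CD79B and CD79A) fell in R5W, with sums of 6540 and 6470 RPM in R5W and 9320 and 9100 in WT (RPM, reads scaled to the library total). At an adjusted p under 0.05, 11.9% of all 13698 genes tested were lower in R5W and 13.1% higher. Of 4 ABC markers IRF4, BATF and FOXP1 rose, with sums of 3090 and 3140 RPM in R5W and 1840 and 1880 in WT. The 4 germinal centre markers were mixed. MME rose by 2.23, on 46 and 43 reads in R5W and 11 and 8 in WT. LMO2 (-0.77) and MYBL1 (-0.36) fell, and BCL6 did not pass. T-cell markers CD3D, CD3G and CD2 were at 0 reads in all 4 libraries, and the myeloid and natural killer sums were at most 0.668 RPM. Among 4 epithelial and stromal markers COL1A1 rose by 1.33 and made up almost all of sums of 15.9 and 15.3 RPM in R5W and 5.37 and 7.14 in WT, while EPCAM was at 0. The part of these shifts in the KLF results was not tested.

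The first comparison asked which Kruppel-like factor genes differ between R5W and WT cells while PI3K is inhibited. KLF2, the quiescence and homing factor, fell 2.53-fold in R5W. KLF9, a glucocorticoid-induced repressor, also fell, and KLF16, a repressor that binds GC boxes, rose. KLF3, KLF6, KLF10, KLF11 and KLF13 did not pass the test, and KLF4 and KLF7 had no reads.

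The level order was set per transcript length, in RPKM (RPM per kilobase of transcript) averaged over the 4 libraries. KLF13 came first at 79.2 RPKM, followed by KLF2 at 36.3, KLF6 at 15.6 and KLF16 at 11.8. KLF10 stood at 4.13, KLF3 at 2.31, KLF11 at 2.09 and KLF9 at 0.755. KLF3 (1.89 to 2.63) and KLF11 (1.85 to 2.34) were the neighbours whose ranges over the 4 libraries overlapped. KLF2 ran from 19.1 to 52.3, the widest range, and still stayed between those of KLF6 (14.5 to 16.6) and KLF13 (73.4 to 84.3).

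Among the activators, KLF2 had deposited log2 values of 9.88 and 9.67 in R5W and 11.13 and 11.10 in WT. These came to 768 and 616 reads in R5W and 1907 and 1778 in WT, so both R5W libraries lay well below both WT libraries. The difference of -1.34 (SE 0.094, adjusted p = 1.04e-06, limma over 13698 genes) passed the threshold of 0.05. KLF2 lies at chr19:16324817-16327874 on the plus strand (GRCh38). KLF6, a broadly expressed factor of the early response to serum and injury, had log2 values of 9.22 and 9.41 in R5W and 9.41 and 9.25 in WT. Its groups overlapped, and the difference was -0.01 (SE 0.112, adjusted p = 0.965). KLF4, which restrains B-cell proliferation in mice, and KLF7, named the ubiquitous Kruppel-like factor, had 0 reads in all 4 libraries. A count of 0 allows up to 3 reads, which is 0.137 to 0.154 RPM at these depths and covers counting error only.

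KLF3, the repressor that recruits CtBP, had log2 values of 8.10 and 8.41 in R5W and 8.43 and 8.55 in WT, from 223 and 258 reads in R5W and 294 and 304 in WT. Both R5W values lay below both WT values, but 8.41 and 8.43 were nearly level. The difference of -0.23 (SE 0.139, adjusted p = 0.246) did not pass. Without R5W replicate 2 it was -0.39 (adjusted p = 0.0152). With 1 library of a genotype left out, the spread comes from the pair of the other genotype alone and the lone library is assumed to vary like it, here and in the values without a library below.

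Of the members that can recruit SIN3A, KLF9 was the weakest expressed. Its log2 values were 5.97 and 6.55 in R5W and 6.80 and 7.08 in WT, from 51 and 71 reads in R5W and 95 and 110 in WT. The groups did not overlap, and the spread within R5W was wider than the gap to the lower WT library. The difference of -0.67 (SE 0.232) had an adjusted p of 0.0483, next to the threshold. This call was lost without WT replicate 1 (-0.82), WT replicate 2 (-0.53) or R5W replicate 1 (-0.39), and by edgeR (adjusted p = 0.0567) and DESeq2 (adjusted p = 0.168) on the reads.

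KLF16 had log2 values of 10.00 and 9.87 in R5W and 9.70 and 9.51 in WT, from 835 and 707 reads in R5W and 708 and 591 in WT. On the log2 scale, which takes account of depth, both R5W libraries lay above both WT libraries. The difference was 0.33 (SE 0.103, adjusted p = 0.0325), or 1.26-fold. The call was lost by DESeq2 (adjusted p = 0.094), without WT replicate 1 (0.42, adjusted p = 0.12) and without WT replicate 2 (0.24, adjusted p = 0.408).

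KLF11, which TGF-beta induces, was higher by the same amount, with log2 values of 7.93 and 7.91 in R5W and 7.59 and 7.58 in WT. Its groups stood apart by more than their spread, but at 155 to 198 reads the difference of 0.33 had an SE of 0.144 and an adjusted p of 0.112. KLF10, the other early gene of TGF-beta, had 8.34 and 8.48 in R5W and 8.47 and 8.39 in WT, which overlapped (difference -0.03, SE 0.125, adjusted p = 0.901). KLF13, which drives the chemokine gene CCL5 in T cells and was the highest member, had 13.70 and 13.65 in R5W and 13.84 and 13.83 in WT. Both R5W libraries were below both WT libraries by a small margin, and the difference of -0.16 (SE 0.070, adjusted p = 0.109) did not pass. Without R5W replicate 1 it was -0.19 (adjusted p = 0.0205), with the spread taken from the WT pair alone.

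**Figure D1:**
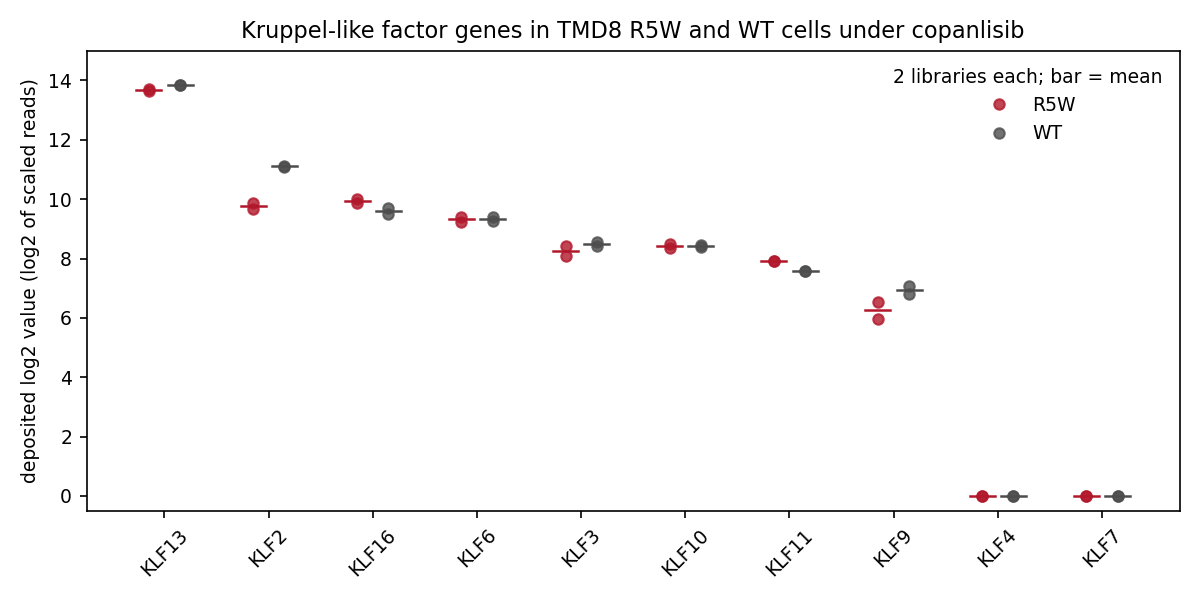
Deposited log2 values (log2 of scaled reads) of the 10 Kruppel-like factor genes, with the 2 R5W libraries left of the 2 WT libraries for each gene and a bar at each group's mean. KLF2 shows the widest gap, at 9.88 and 9.67 in R5W and 11.13 and 11.10 in WT, and KLF4 and KLF7 lie at 0.

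Of the 10 members, 8 passed the filter on low values, each in both genotypes, and of these 1 rose, 2 fell and 5 did not pass the test. Over all 13698 genes tested 25% were called, 13.1% higher and 11.9% lower, and with 8 members tested the 3 calls do not set the family apart. The median difference of the 8 was -0.10, beside 0.01 over all genes.

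Of 8 other KLF genes 7 were in the table and 5 passed the filter on low values with a library of each genotype at the minimum. Of these 1 rose and 1 fell, with a median of -0.15. KLF5, an activator of epithelial proliferation, rose by 1.18 (adjusted p = 0.00874), on 53 and 50 reads in R5W and 28 and 20 in WT. KLF15, a metabolic regulator, had 22 and 11 reads in R5W and 4 and 4 in WT. It passed the filter only through R5W, so it is left out of the counts and no test is given. KLF8, which like KLF3 recruits CtBP, fell by 0.47 (adjusted p = 0.00502), at 413 and 372 reads in R5W and 580 and 573 in WT. KLF12, another factor of the CtBP group, was at -0.20 (adjusted p = 0.166). KLF17 had 0 reads.

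**Figure D2:**
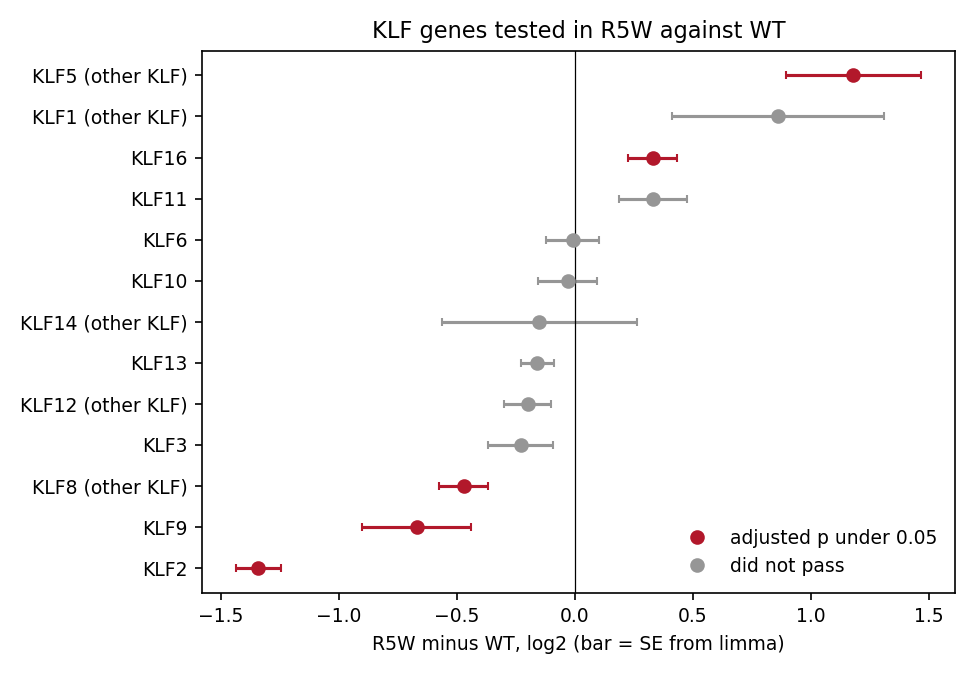
R5W minus WT difference in log2 units for each KLF gene that passed the filter on low values in both genotypes, as points with bars of 1 SE from limma, red where the adjusted p was under 0.05. KLF2 stands furthest left at -1.34 and KLF5 furthest right at 1.18.

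The genes around the members were read from lists of known partners. Their counts stand beside the 25% of all genes called and the median of 0.01 given above, and call nothing particular to a list. Of 9 SP factors, the nearest relatives of the family, 4 passed the filter in both genotypes, with a median of 0.05. Limma called 0 of them, none had an unadjusted p under 0.05, and edgeR and DESeq2 on the reads called 0 of the 4 they tested. SP6, at 14 and 8 reads in R5W and 2 and 4 in WT, passed only through R5W and is given no test. The most abundant, SP1 and SP3, were at 0.15 (adjusted p = 0.159) and 0.02 (adjusted p = 0.873). Of 8 genes of the ERK5-MEF2 route that leads to KLF2, all were tested, 3 fell, 0 were called higher and 5 did not pass, with a median of -0.20, where 11.9% of all genes were called lower. MAP3K2, a kinase at the top of the route, fell by 0.46 (adjusted p = 0.00175), with 1154 and 1159 reads in R5W and 1669 and 1703 in WT. The MEF2 factors MEF2B (-0.41, adjusted p = 0.0113) and MEF2A (-0.29, adjusted p = 0.0198) fell too. MAPK7, the gene for ERK5 itself, was at 0.25 with both R5W libraries above both WT libraries (adjusted p = 0.116), and MEF2C (-0.17, adjusted p = 0.185) and MEF2D (-0.13, adjusted p = 0.22) did not pass. The MEF2 motif in the KLF2 window above is the only match among the 12 windows searched, and KLF3 and KLF10 had no window. A link between these genes and the KLF2 level was not tested.

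Of 7 genes of FOXO factors and lymphocyte homing 6 were tested, with 0 higher, 2 lower and a median of -0.19. S1PR1, the sphingosine receptor that lets lymphocytes leave lymphoid tissue, fell by 0.38 (adjusted p = 0.00404), with 1196 and 1098 reads in R5W and 1634 and 1533 in WT. FOXO4 fell by 0.41 (adjusted p = 0.0485).

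Among 10 co-repressors and ubiquitin ligases of KLF proteins, all tested, HDAC2, a histone deacetylase of the SIN3A complex, rose by 0.31 (adjusted p = 0.0103) and the others did not pass, with a median of 0.04. The most abundant by mean log2 value was SIN3A, at 0.16 (adjusted p = 0.149). Of 10 genes of the TGF-beta pathway 9 passed the filter in both genotypes, and of these 1 rose, 2 fell and 6 did not pass, with a median of -0.07. The ligand TGFB1 rose by 0.47 (adjusted p = 0.00109), while the receptor TGFBR2 fell by 0.45 (adjusted p = 0.000788) and the signal carrier SMAD3 fell by 0.44 (adjusted p = 0.00236). Of 5 glucocorticoid-responsive genes 2 fell, 0 were called higher and 3 did not pass, with a median of -0.13. Among those that did not pass, DUSP1 was at 0.73 with both R5W libraries above both WT libraries (adjusted p = 0.0887). TSC22D3, a classic glucocorticoid target, fell by 1.09 (adjusted p = 0.0162) on 38 and 71 reads in R5W and 132 and 106 in WT. The receptor gene NR3C1 fell by 0.30 (adjusted p = 0.0125).

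In the drug tables the counts under most identifiers did not follow the genes they name, so a row was used only where its neighbourhood did. The rank correlation between mean counts of TMD8 DMSO libraries and the levels of WT libraries was 0.913 over 697 genes inside 7 checked segments and 0.069 over 14430 genes outside them. The segments were chosen by this same correlation along each chromosome, so the gap between inside and outside follows in part from the choice. KLF3 (ENSG00000109787, chr4:38664196-38701042, plus strand) and KLF16 (ENSG00000129911, chr19:1852399-1863568, minus strand) lie inside, in GRCh38 coordinates. Around KLF16 the running correlation over 21 genes was 0.961 in TMD8, 0.913 in RIVA and 0.918 in HBL1, and around KLF3 it was 0.854, 0.842 and 0.788 in the same lines. The TMD8 values were part of the choice of segments, and those of RIVA and HBL1 were not. Against the trend between TMD8 DMSO counts and WT levels, KLF16 was off by 1.18 log2 units and KLF3 by -0.38. Near KLF3 the counts followed gene positions slightly better when moved by -800 bp (rank correlation 0.910, against 0.865 unmoved). There 58.8% of KLF3 exon bases would still be its own. A larger move of -2100 bp did nearly as well (0.900), where 32.2% would be its own. The offset is not well resolved, so the KLF3 level may miss part or most of the gene. KLF3 overlaps the antisense gene KLF3-AS1, whose row held 36 counts in all 9 TMD8 libraries. KLF16 overlaps AC012615.3 and AC012615.4, whose rows held 0 and 95 counts in the same libraries. The strand setting of the counting is not given in the sources used here. The other 8 members lie outside the segments and are not given for the drugs.

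In HBL1, libraries with the same replicate number deviated together (correlations of 0.294 to 0.683), and the 3 libraries numbered 2 held the most KLF3 in each treatment. The comparison within replicate numbers was planned for HBL1, because earlier work on these data had shown its libraries numbered 2 to stand apart. Values without those libraries are given beside the results. Comparisons of both drugs within a line share the same DMSO libraries.

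KLF3 fell with the RHOA inhibitor in TMD8 and rose with it in HBL1, although the HBL1 call rests on the replicate block and on 8 to 90 counts. In TMD8 it stood at 12.5, 12.3 and 12.6 CPM (counts scaled to the library total) with Rhosin, at 10.3, 8.45 and 8.15 CPM with ibrutinib, and at 23.2, 26.2 and 25.2 CPM with DMSO. Every drug-treated library lay below every DMSO library, and every Rhosin library above every ibrutinib library. The means were 12.5 ± 0.12 CPM with Rhosin, 8.98 ± 1.19 with ibrutinib and 24.9 ± 1.53 with DMSO (SD, n = 3 each). The log2 change with Rhosin against DMSO was -1.12 by edgeR (SE 0.125, adjusted p = 9e-07), a 2.17-fold drop. Of the 11403 rows tested in TMD8 after the filter on low counts, 52.7% were called. The change with ibrutinib against DMSO was -1.57 (SE 0.130, adjusted p = 1.81e-07), a 2.97-fold drop, where 36.9% were called.

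Set directly against ibrutinib, Rhosin left KLF3 higher by 0.45 (SE 0.136, adjusted p = 0.0389), where 11.1% of rows were called. That call was lost in 9 of 11 alternatives, among them DESeq2 (adjusted p = 0.0612). It was lost without any 1 of the 3 ibrutinib libraries (0.52, 0.38 and 0.42 without replicates 1, 2 and 3) or the 3 Rhosin libraries (0.46, 0.44 and 0.42).

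RIVA held far fewer KLF3 counts, 13 to 41 per library. Its levels were 2.00, 2.21 and 3.23 CPM with Rhosin, 0.985, 1.66 and 1.39 CPM with ibrutinib, and 2.33, 1.99 and 4.22 CPM with DMSO. Rhosin and DMSO libraries overlapped, while all 3 ibrutinib libraries lay below all DMSO libraries. Ibrutinib gave -1.11 (SE 0.365, adjusted p = 0.279) and Rhosin -0.24 (SE 0.332, adjusted p = 0.672), and neither passed. Without DMSO replicate 3, the library with the most KLF3, the Rhosin value turned to 0.15 (adjusted p = 0.809) and the ibrutinib value was -0.73 (adjusted p = 0.662). Calls in RIVA came to 0.912% of the 11956 rows tested for ibrutinib and 16.8% for Rhosin.

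In HBL1, KLF3 stood at 3.55, 8.10 and 3.71 CPM with Rhosin, from 37, 90 and 37 counts. With ibrutinib it was at 0.739, 2.65 and 0.402 CPM, from 8, 26 and 4 counts, and with DMSO at 1.41, 3.76 and 0.754 CPM, from 15, 41 and 8 counts. Within each replicate number Rhosin was highest and ibrutinib lowest, although DMSO replicate 2 overlapped the Rhosin range. Rhosin raised KLF3 by 1.32 (SE 0.278, adjusted p = 0.00189), or 2.50-fold, where 25.6% of the 11905 rows tested were called. Ibrutinib was at -0.70 (SE 0.348, adjusted p = 0.241) and did not pass, where 8.66% were called, and it was -1.17 without ibrutinib replicate 2 (adjusted p = 0.219). Rhosin was above ibrutinib by 2.03 (SE 0.304, adjusted p = 0.000441), where 12.7% were called. Without the 3 libraries numbered 2 these rises were 1.66 (adjusted p = 0.00418) and 2.59 (adjusted p = 0.000587). Without the replicate block they were 1.25 (adjusted p = 0.347) and 1.95 (adjusted p = 0.408).

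**Figure D3:**
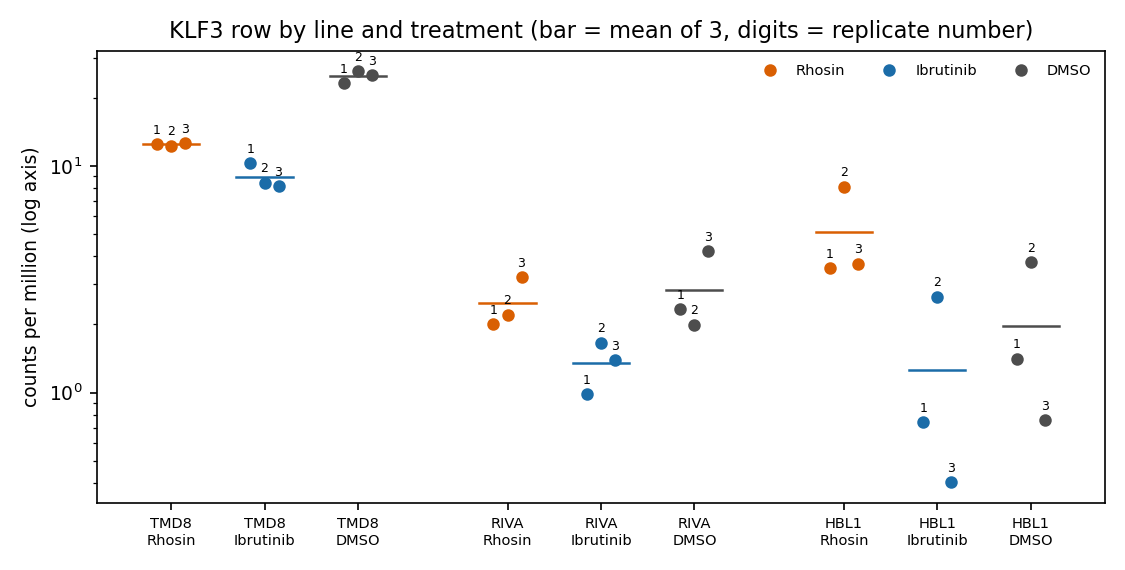
KLF3 row in CPM on a log axis, for Rhosin, ibrutinib and DMSO from left to right within TMD8, RIVA and HBL1, with 3 libraries per group, replicate numbers as digits and a bar at the mean. Rhosin lies below DMSO in TMD8 (12.3 to 12.6 against 23.2 to 26.2 CPM) and above the DMSO library of the same number in HBL1.

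The difference between lines was tested in a model of all 27 drug libraries, with 14367 rows tested. Its estimates can depart slightly from the differences between the fits of single lines above. The Rhosin effect on KLF3 was higher in HBL1 than in TMD8 by 2.34 (SE 0.282, adjusted p = 1.03e-06), where 17.6% of rows differed. It was higher in HBL1 than in RIVA by 1.56 (SE 0.343, adjusted p = 0.00644), where 4.22% differed, a call lost without the replicate block (1.5, adjusted p = 0.396). RIVA minus TMD8 was 0.78 (SE 0.287, adjusted p = 0.0522), where 22.3% differed. For ibrutinib, the KLF3 effect of RIVA minus TMD8 was 0.43 (adjusted p = 0.444), that of HBL1 minus TMD8 0.80 (adjusted p = 0.186) and that of HBL1 minus RIVA 0.37 (adjusted p = 0.824). None of these passed, where 16.5%, 9.8% and 1.14% of rows differed in the same order.

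KLF16 fell with Rhosin in all 3 lines, and with ibrutinib in TMD8 and HBL1, although the HBL1 calls rest on the replicate block. In TMD8 it stood at 75.7, 104 and 100 CPM with Rhosin, at 99.9, 93.1 and 108 CPM with ibrutinib, and at 146, 177 and 134 CPM with DMSO. All 6 drug-treated libraries lay below all 3 DMSO libraries, and both drugs overlapped each other. The log2 change was -0.83 with Rhosin (SE 0.129, adjusted p = 3.61e-05), a 1.78-fold drop, and -0.70 with ibrutinib (SE 0.129, adjusted p = 0.000386), a 1.62-fold drop. Rhosin minus ibrutinib was -0.13 (SE 0.129, adjusted p = 0.58).

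RIVA separated the drugs for KLF16. Its levels were 108, 112 and 88.8 CPM with Rhosin, 136, 158 and 134 CPM with ibrutinib, and 142, 130 and 143 CPM with DMSO. The Rhosin libraries lay below all others, and ibrutinib overlapped DMSO. With Rhosin the KLF16 change was -0.50 against DMSO (SE 0.112, adjusted p = 0.00918) and -0.51 against ibrutinib (SE 0.112, adjusted p = 0.0142), where 9.18% of rows were called. The second call was lost without Rhosin replicate 3 (-0.43, adjusted p = 0.058). Ibrutinib against DMSO was 0.01 (SE 0.111, adjusted p = 0.997).

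In HBL1, KLF16 stood at 190, 144 and 149 CPM with Rhosin, at 156, 148 and 155 CPM with ibrutinib, and at 186, 199 and 190 CPM with DMSO. Ibrutinib libraries lay below all DMSO libraries, while Rhosin replicate 1 overlapped DMSO. Within replicate number 1 KLF16 did not fall with Rhosin (190 CPM, against 186 with DMSO), and it fell within numbers 2 and 3. Both drugs gave -0.37 (SE 0.090), with an adjusted p of 0.00575 for Rhosin and 0.0154 for ibrutinib, and Rhosin minus ibrutinib was 0.00 (adjusted p = 1). Without the replicate block both calls were lost, at -0.36 for Rhosin (adjusted p = 0.216) and -0.36 for ibrutinib (adjusted p = 0.494). Without the 3 libraries numbered 2 they were -0.24 for Rhosin (adjusted p = 0.0635) and -0.30 for ibrutinib (adjusted p = 0.0543). The Rhosin call was also lost without Rhosin replicate 2 (-0.27), and the ibrutinib call without DMSO replicate 2 (-0.27), ibrutinib replicate 1 (-0.32) or ibrutinib replicate 2 (-0.37).

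**Figure D4:**
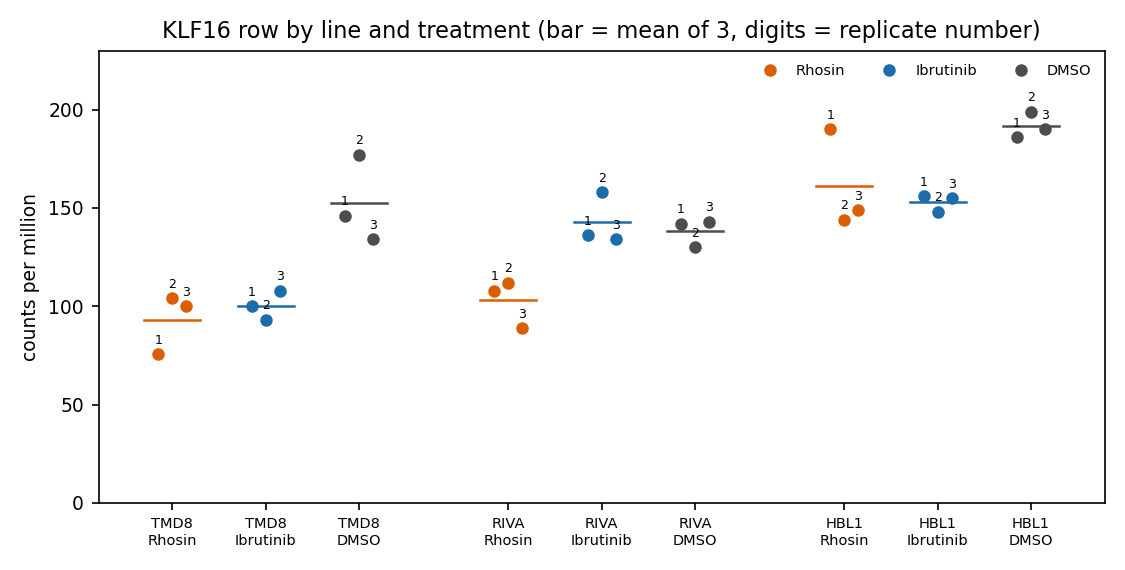
KLF16 row in CPM for Rhosin, ibrutinib and DMSO from left to right within TMD8, RIVA and HBL1, with 3 libraries per group, replicate numbers as digits and a bar at the mean. In RIVA the Rhosin libraries (88.8 to 112 CPM) lie below those with ibrutinib (134 to 158 CPM) and DMSO (130 to 143 CPM).

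Between lines, the ibrutinib effect on KLF16 was higher in RIVA than in TMD8 by 0.64 (SE 0.159, adjusted p = 0.00487), where 16.5% of rows differed. HBL1 minus TMD8 was 0.25 (adjusted p = 0.384) and HBL1 minus RIVA -0.39 (adjusted p = 0.316). The Rhosin effects on KLF16 did not pass a test of difference between lines, at 0.24 for RIVA minus TMD8 (adjusted p = 0.306), 0.38 for HBL1 minus TMD8 (adjusted p = 0.0996) and 0.14 for HBL1 minus RIVA (adjusted p = 0.748).

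**Figure D5:**
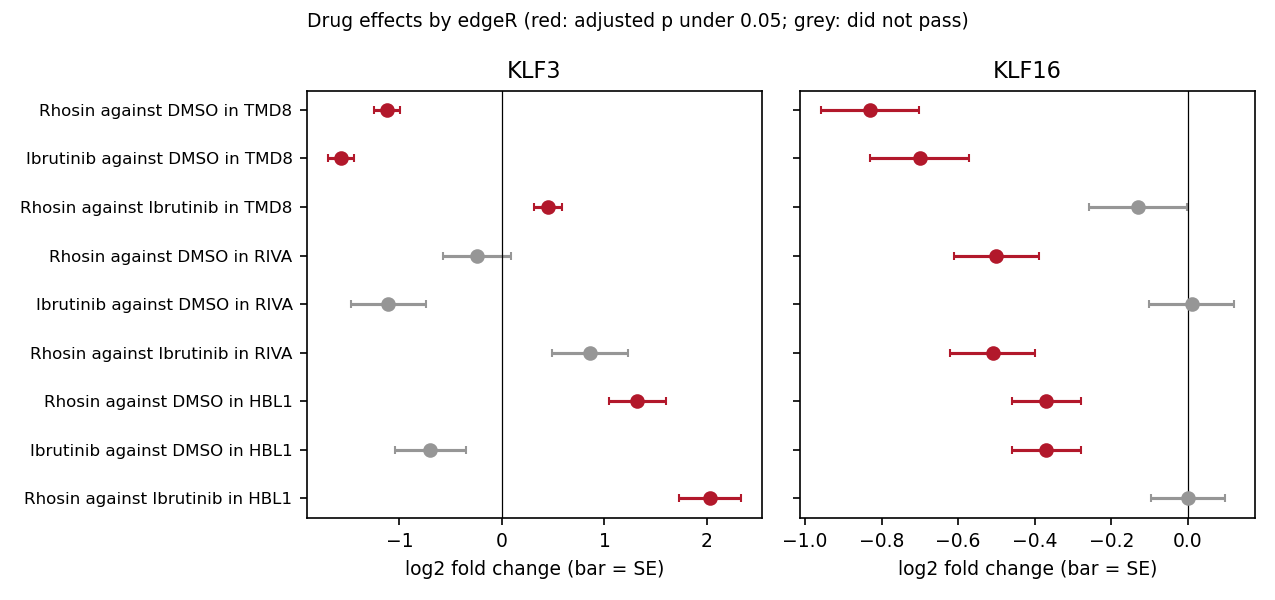
Log2 fold changes of KLF3 and KLF16 by edgeR for each drug comparison in each line, as points with bars of 1 SE, red where the adjusted p was under 0.05 and grey where it was not. KLF3 runs from -1.57 (ibrutinib against DMSO in TMD8) to 2.03 (Rhosin against ibrutinib in HBL1), while KLF16 spans -0.83 to 0.01.

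The genes most like each member were sought among 508 checked rows over the 27 drug libraries, by Pearson's r of log2 CPM with each line's mean removed. These libraries share lines, treatments and depth, so the values are descriptions. KLF3 was most like GNE (0.835), C9orf72 (0.780) and DUSP22 (0.761), and least like SDHA (-0.612), KIF24 (-0.605) and PSIP1 (-0.601). KLF16 was most like LONP1 (0.898), WDR18 (0.874) and SH3GL1 (0.863), and least like MPPE1 (-0.833), SIRT5 (-0.802) and TJP3 (-0.793). The r between KLF3 and KLF16 was 0.144.

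Across the sets, KLF16 was higher by 0.33 in R5W cells than in WT cells, both under copanlisib, while in TMD8 with wild-type RHOA its change was -0.83 with Rhosin and -0.70 with ibrutinib, each against DMSO. KLF3 was at -0.23 in R5W against WT without passing, beside -1.12 with Rhosin and -1.57 with ibrutinib in TMD8. The sets came from different facilities and kits, so these values stand side by side and were not tested against each other.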

How the data were processed

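RNA was sequenced from 3 lymphoma lines (27 libraries) and from TMD8 R5W and WT cells (4 libraries). Each set had its own facility and stranded kit, per the labels' protocols. The submitters' processing notes name Picard, RSEM, STAR, cutadapt and bcl2fastq and the builds hg19 and GRCh37, without saying which served which set. Drug-treated libraries were deposited as raw counts per Ensembl gene. The R5W and WT values were deposited as log2 values by the authors. Undoing the logarithm gave whole reads within 0.1 read for 100% of values up to 200 reads, each times 1 factor per library, with 27 symbols restored from dates. The plan had allowed for counts, so the test for normalized values was used instead.

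For R5W against WT, limma 3.58.1 was run with trend and robust settings on values with a pseudocount of 1, log2 transformed, keeping genes that reached 10 in 2 libraries. Drug comparisons used edgeR 4.0.16 (filterByExpr, TMM, quasi-likelihood test), 1 fit of 9 libraries per line, and 1 fit of 27 libraries for interactions, with replicate number within line as a block. P-values are two-sided and Benjamini-Hochberg adjusted over the features tested after the filter, with calls under 0.05. Shares of drug rows called are of the rows tested: 11403 in TMD8, 11956 in RIVA, 11905 in HBL1 and 14367 for interactions. DESeq2 1.42.0 was an alternative. HBL1 was fitted with the block. There, correlations of deviations between libraries of the same number were 0.294 to 0.683. The chi-square per gene between replicate counts in HBL1 was 34 to 41.7 for pairs with number 2 and 3.9 to 6.09 for numbers 1 and 3. Deviations are taken from group means, so a shift of number 2 alone can give such correlations. They cannot show whether numbers 1 and 3 pair samples, and the labels state no pairing. A drug row was named only where a running correlation over 21 genes stayed over 0.7 for at least 30 genes and its own level was no more than 2 log2 units off the trend between both sets. Within groups, replicate counts differed by more than sampling noise (chi-square per gene 3.68 to 41.7). Floors cover counting error only.

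The members and lists were chosen with earlier results of these data known. All members are named; from each list up to 4 called genes with the largest change are named, and the 2 with the highest mean level where fewer than 2 passed. KLF12, MAPK7, MEF2C, MEF2D, SP6, DUSP1 and the markers were named outside this rule, after their values were seen. List genes that passed the filter through only 1 genotype are left out of the list counts. From the lists as planned, 2 genes are not reported here and were left out of the list counts.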

Additional observations from a re-analysis of the deposited data

Results flagged for a closer look

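The effects of a drug on a gene differed between lines by the interaction test in 3 cases, estimated on the log2 scale in 1 model of all 27 drug libraries. The values in brackets come from the separate fits of each line, so their differences need not equal the interaction. The ibrutinib effect on KLF16 was 0.64 higher in RIVA (0.01) than in TMD8 (-0.70). For Rhosin, the effect on KLF3 was 2.34 higher in HBL1 (1.32) than in TMD8 (-1.12), and 1.56 higher in HBL1 than in RIVA (-0.24). The last rests on 37 to 90 counts with Rhosin and 8 to 41 with DMSO in HBL1, and on 22 to 38 with Rhosin and 23 to 41 with DMSO in RIVA.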

How the results depend on the processing

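Over 38 results for single genes and 332 alternatives, 283 kept direction and side of the threshold, 31 lost the call, 3 gained one and 15 changed sign, and 20 results kept both under every alternative run. The 15 belong to 6 results that did not pass, and 0 of them passed after the change. In R5W against WT, limma without trend or robust gave 900 calls in place of 3428, with KLF9 at -0.67 and KLF16 at 0.33, both no longer passing. KLF9 also lost its call by edgeR (-0.67) and DESeq2 (-0.68), and KLF16 by DESeq2 (0.32). The replicate block changed no member's call there, where the numbers do not pair samples (correlation -0.061). Leaving out 1 library gave 1024 to 5668 calls, KLF9 -0.96 to -0.39, KLF16 0.24 to 0.42, KLF13 -0.19 to -0.14 KLF3 -0.39 to -0.08, KLF6 -0.10 to 0.09 and KLF10 -0.10 to 0.04.

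For Rhosin against ibrutinib in TMD8, KLF3 lost its call without the filter (0.47), by DESeq2 (0.44) and with only those groups (0.45). With the replicate block, calls there were 2021 in place of 1262, in RIVA 1921 in place of 1098, and for ibrutinib in RIVA 263 in place of 109. Correlations between same-numbered libraries were -0.001 to 0.251 in TMD8 and -0.115 to 0.393 in RIVA, beside 0.294 to 0.683 in HBL1. The RIVA and HBL1 ranges overlap, and whether numbers pair samples in TMD8 or RIVA was not tested. Ibrutinib in RIVA gave 383 calls without the filter, 198 by DESeq2 and 70 with only those groups. Without the replicate block HBL1 had 14 calls for ibrutinib (1031 with it), 4 for Rhosin (3042) and 0 for Rhosin against ibrutinib (1511). For that 0 by edgeR, 1183 rows had an unadjusted p under 0.05, and DESeq2 called 84. There KLF16 was at -0.36 for both drugs, and KLF3 at 1.25 and 1.95, or 1.5 for HBL1 minus RIVA. For the Rhosin effect on KLF3 of RIVA minus TMD8, edgeR with DESeq2 size factors gave 0.82, past the threshold (adjusted p = 0.0419). Without the replicate block that effect was 0.80 by edgeR (adjusted p = 0.399). Without the HBL1 libraries numbered 2, chosen after seeing the data, ibrutinib gave 566 calls and KLF16 was at -0.30 for ibrutinib and -0.24 for Rhosin.

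Leaving out 1 library gave 570 to 1162 calls for Rhosin against ibrutinib in TMD8 (KLF3 0.38 to 0.52, KLF16 -0.23 to 0.02). In RIVA it gave 33 to 119 for ibrutinib (KLF16 -0.07 to 0.07), 1113 to 1933 for Rhosin (KLF3 -0.49 to 0.15) and 380 to 940 for Rhosin against ibrutinib (KLF16 -0.57 to -0.43). In HBL1 it gave 314 to 670 for ibrutinib (KLF16 -0.46 to -0.27), KLF16 -0.52 to -0.27 for Rhosin, and 537 to 1034 for Rhosin against ibrutinib (KLF16 -0.15 to 0.10). That KLF16 value, 0.00 as reported, was -0.01 by DESeq2 size factors, -0.01 without the filter, -0.01 by DESeq2 and -0.01 with only those groups. Depth limits KLF3 in RIVA and HBL1, at 4 to 90 counts, and KLF9, at 51 to 110 reads.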
